A study of Mus musculus with 14 samples.

Results

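The complement genes described here are C3, C4b, C2, Cfb, C1ra, Serping1, C3ar1, C5ar1 and Cd59a, that is, components, receptors and regulators of complement other than C1q. They were found by gene symbol in the annotation of the array's probes: 7 of the 9 genes had a probe, with 8 probes in all (Cfb had 2), among 13661 genes named on the array. C3 and C1ra had no probe under their symbols and were not analysed here. The RNA came from primary astrocyte cultures of newborn mice, the star-shaped glial cells of the brain, in 3 groups: cultures lacking connexin43 (Cx43, the gap junction protein encoded by Gja1; 4 samples, called null), wild-type cultures transfected with an siRNA construct against Cx43 (4 samples, called siRNA) and wild-type cultures (3 of 6 samples used, replicates 3, 4 and 6). The titles call the cells cortical, while the protocol describes dissection of whole brain tissue. The design text gives 36 h of siRNA treatment and 4 independent cultures per group, but cultures cannot be matched to samples from the labels. The p-values therefore reflect sample-to-sample spread, part of which may be technical. The wild-type protocol names no mock transfection, so transfection and loss of Cx43 cannot be told apart in the siRNA samples. No label names the null allele or the strain.

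Complement is a cascade of blood and tissue proteins that tags cells and debris for removal. In the classical pathway C1q recruits the proteases C1r and C1s, which cleave C4 and C2 to form an enzyme that splits C3; in the alternative pathway factor B, the product of Cfb, takes the place of C2. The fragments C3a and C5a act on the receptors encoded by C3ar1 and C5ar1, while C1 inhibitor (Serping1) blocks C1r and C1s, and CD59 (Cd59a) blocks the final membrane pore. In brain, reactive astrocytes are a known source of C3, C4 and factor B, and microglia, the brain's resident macrophages, of C1q and of both receptors.

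The values the authors deposited are log2 values with a median of 0 in each sample, so they rank a probe within a sample and are not compared between probes. Between 17849 and 26826 of 33600 probes had a value in the 11 samples used, and why a value is missing is unknown. Across probes, each of the 11 samples had an r of 0.89 to 0.95 with the mean of the other 10. Wild-type replicates 1, 2 and 5 had an r of 0.37, 0.38 and -0.02 with the mean of the 11, and were left out. Null and siRNA replicates 1 and 2 stood apart from replicates 3 and 4, whereas all wild-type samples used belong with replicates 3 and above, so the model held a term for the replicate set and 1 for the dye. Replicate pairs 1 and 2, and 3 and 4, carry opposite dyes and may share an array, which was not tested. Gja1 read -1.17, -1.06, 2.82 and 3.03 in null samples 1 to 4, 1.93, 2.14, 5.47 and 5.70 in siRNA samples 1 to 4 and 6.08, 7.53 and 4.82 in wild type. It fell in null samples (limma log2 change -3.31 ± 0.58 SE, adjusted p = 0.0482; -3.10 and adjusted p = 0.273 with presumed array pairs as a random block), while the siRNA change was -0.41 ± 0.58 (adjusted p = 0.735), so lower Gja1 RNA was not detected in the samples labelled siRNA. Whether the probe lies in the deleted part of the gene was not tested. Of 16 astrocyte markers 11 were tested, and their mean log2 value lay between 1.40 and 3.63 in the 11 samples, while Gfap, Slc1a3 and S100b had too few values to be tested.

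C4b and C2, which together form the classical C3-splitting enzyme, were higher in siRNA samples than in wild type. The C2 call was narrow. The C4b call rests on 2 siRNA samples that may share an array, and was lost without wild-type replicate 3. In null samples both also stood above wild type (2.10 for C4b and 1.82 for C2), without passing. Between null and siRNA samples neither of them passed (limma adjusted p = 0.415 for C4b and 0.863 for C2). Cfb was much lower in null than in siRNA samples at the probe that carries its RefSeq accession. C1 inhibitor was higher in null than in siRNA samples in the main fit, but the groups overlapped. That call was lost in 10 of 23 other settings, among them presumed array pairs as a random block (limma adjusted p = 0.153). The anaphylatoxin receptors and Cd59a passed the test in no contrast.

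**Figure D1:**
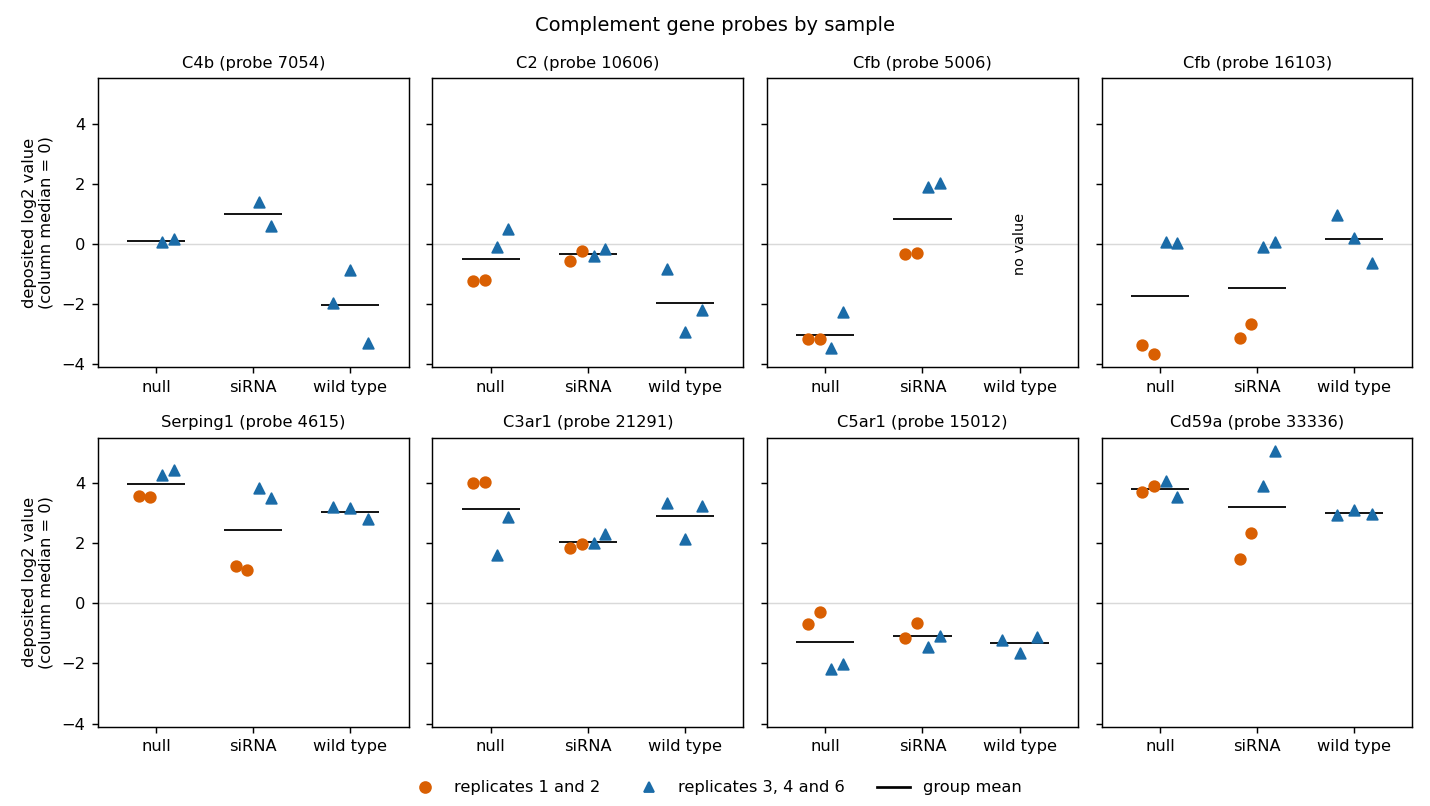
Deposited log2 value (each sample's median is 0) of every complement probe in null, siRNA and wild-type samples; circles are replicates 1 and 2, triangles replicates 3, 4 and 6, and bars are group means. For Cfb probe 5006 the 4 siRNA samples lie between -0.35 and 2.03 and the 4 null samples between -3.47 and -2.28, and wild-type samples 3, 4 and 6 have no value.

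Of the 8 probes, 6 were measured in all 11 samples and tested together with the 16307 probes that had at least 2 wild-type, 3 null and 3 siRNA values. Between siRNA and wild type 1 of these 6 was called at an adjusted p under 0.05, where 7.41% of all probes were called, and between null and siRNA 1 of 6, where 6.22% were. Between null and wild type limma called 0 of 6, with 0.362% of all probes called; 3 of 6 had an unadjusted p under 0.05, against 15.3% of all probes. The median log2 change of the 6 was 0.69 for null minus wild type, 0.05 for siRNA minus wild type and 0.22 for null minus siRNA, beside 0.20, 0.13 and 0.07 over all probes tested. With so few probes these counts do not set the complement genes apart from the rest of the array.

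C4b encodes the C4 protein that binds covalently to its target. Its probe had a value in replicates 3 and above alone: 0.07 and 0.14 in null samples 3 and 4, 1.41 and 0.60 in siRNA samples 3 and 4, and -1.98, -0.86 and -3.29 in wild-type samples 3, 4 and 6. All null and all siRNA values lay above every wild-type value, and the siRNA values lay above the null values. Each of these groups had 2 samples that may share an array. For null against siRNA the smallest exact permutation p that 6 splits allow is 0.333, so this order does not separate them. The share of all probes with such an order was not computed. It had too few values for the filter above and was tested among the 20412 probes with at least 2 values per group. There C4b rose in siRNA samples by 3.003 ± 0.56 (SE, log2; 8.02-fold, limma adjusted p = 0.0146), where 7.94% of probes were called. Without wild-type replicate 3 the rise was 2.90 with an adjusted p = 0.0856, and with presumed array pairs as a random block 3.19 with an adjusted p = 0.0475. For null minus wild type the change was 2.10 ± 0.56 (limma adjusted p = 0.101), where 1.53% of probes were called, and an exact two-sided permutation gave p = 0.2 for null and p = 0.1 for siRNA, the smallest that 10 splits allow being 0.1. Null minus siRNA was -0.90 ± 0.62 (limma adjusted p = 0.415). Mice carry a close copy of this gene, C4a, and which of them the probe reports was not tested.

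C2, the protease that pairs with C4, read -1.23, -1.20, -0.11 and 0.50 in null samples 1 to 4. The siRNA samples read -0.57, -0.24, -0.39 and -0.19, and wild-type samples 3, 4 and 6 read -0.85, -2.93 and -2.19. All 4 siRNA samples lay above all 3 wild-type samples, as groups without overlap did for 15.2% of 14243 probes with all 11 values, while null replicates 1 and 2 lay within the wild-type range. C2 rose in siRNA samples by 1.98 ± 0.55 (SE, log2; 3.96-fold, limma adjusted p = 0.0495; exact two-sided permutation of the means p = 0.0286, the smallest 35 splits allow). This call was narrow: with the replicate number as a block the change was 1.92 (adjusted p = 0.08), with presumed array pairs as a random block 2.00 (adjusted p = 0.231), and it was lost without wild-type replicate 4 or 6 and without any 1 null or siRNA sample (adjusted p 0.0676 to 0.168). For null minus wild type C2 stood at 1.82 ± 0.55 (adjusted p = 0.14). Within replicates 3 and above alone that difference was 2.11 and passed (adjusted p = 0.0487), while siRNA minus wild type was 1.62 and did not (adjusted p = 0.0891). Null minus siRNA was -0.16 ± 0.46 over the 11 samples (limma adjusted p = 0.863).

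Cfb encodes factor B, the protease of the alternative pathway, and its gene neighbours C2 in the order of protein-coding genes of the GRCm38.p6 assembly, with 5 genes between Cfb and C4b. Probe 5006, which is annotated with a RefSeq transcript of the gene, read -3.15, -3.17, -3.47 and -2.28 in null samples 1 to 4 and -0.35, -0.31, 1.90 and 2.03 in siRNA samples 1 to 4. The groups did not overlap, as held for 9.49% of the 14728 probes with all 8 null and siRNA values. It follows that null was lower in all 4 pairs that share a number (log2 difference -5.37 to -2.80), which adds no further support. Since wild-type samples 3, 4 and 6 had no value for it, it was tested in the null and siRNA samples alone, where 8.52% of 16587 probes were called. Null minus siRNA was -3.83 ± 0.46 (SE, log2; 14.3-fold lower in null, limma adjusted p = 0.00652; exact two-sided permutation p = 0.0286, the smallest 70 splits allow). The call held without any 1 of the 8 samples and in all 6 other settings run for it, presumed array pairs included (changes of -4.84 to -3.37, adjusted p 0.000483 to 0.0328). How either group compares with wild type at this probe was not tested.

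The other Cfb probe, 16103, is annotated with the gene but with no transcript accession, and it did not show that difference. It read -3.38, -3.67, 0.05 and 0.02 in null samples, -3.15, -2.67, -0.09 and 0.04 in siRNA samples and 0.96, 0.20 and -0.65 in wild-type samples 3, 4 and 6. In both the null and the siRNA group replicates 1 and 2 lay far below replicates 3 and 4. Within replicates 3 and above all 3 groups overlapped. Null minus siRNA was -0.28 ± 0.37 (95% interval -1.09 to 0.53, adjusted p = 0.689), siRNA minus wild type -0.06 ± 0.44 (adjusted p = 0.953) and null minus wild type -0.34 ± 0.44 (adjusted p = 0.781). The probes of this gene disagree, so the difference in Cfb rests on probe 5006.

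**Figure D2:**
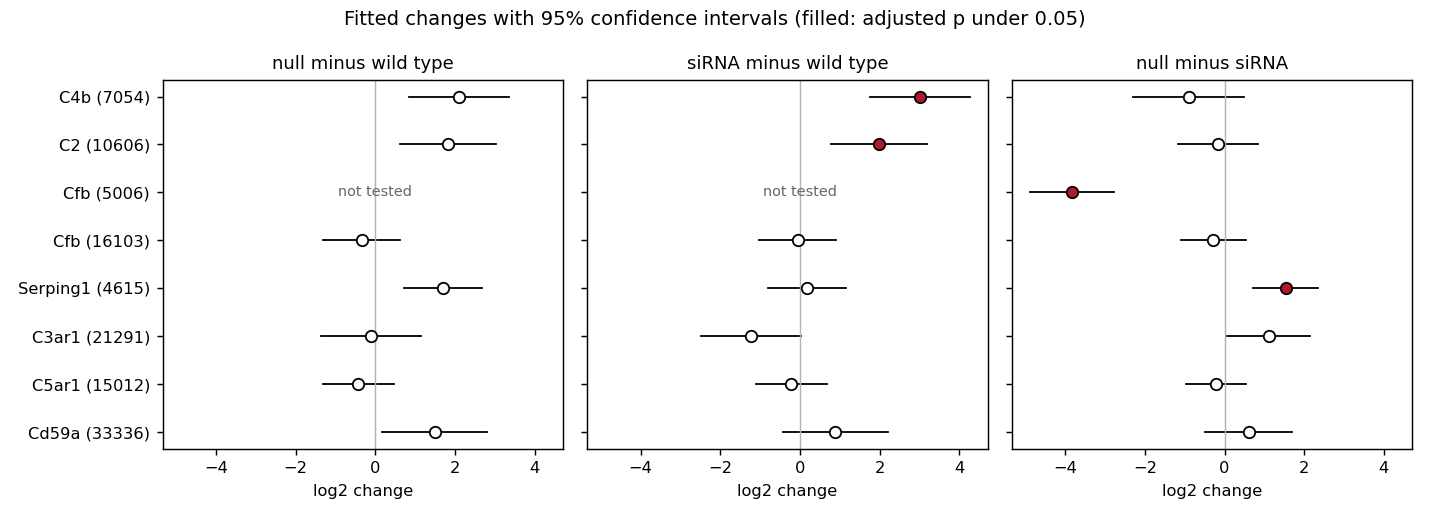
Fitted log2 changes of each complement probe with 95% confidence intervals for null minus wild type, siRNA minus wild type and null minus siRNA; filled points had an adjusted p under 0.05. C4b and C2 are filled for siRNA minus wild type (3.003 and 1.98), and Cfb probe 5006 (-3.83) and Serping1 (1.53) for null minus siRNA.

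Serping1 encodes C1 inhibitor, the serpin that stops C1r and C1s. It read 3.58, 3.55, 4.26 and 4.43 in null samples 1 to 4, 1.25, 1.10, 3.83 and 3.51 in siRNA samples 1 to 4 and 3.20, 3.17 and 2.80 in wild-type samples 3, 4 and 6. All 4 null samples lay above all 3 wild-type samples, and siRNA replicates 1 and 2 were the lowest of all samples. Null exceeded siRNA by 1.53 ± 0.37 (SE, log2; 2.89-fold, limma adjusted p = 0.0342; exact two-sided permutation p = 0.114, the groups overlapping), in 4 of 4 same-numbered pairs, by 0.43 to 2.46. The difference averaged 2.39 in replicates 1 and 2 and 0.67 in replicates 3 and 4, and within replicates 3 and above alone it did not pass (adjusted p = 0.423). It was also lost with presumed array pairs as a random block (adjusted p = 0.153) and on leaving out null replicate 1, 2 or 4 or the same siRNA replicates (changes of 1.31 to 1.69, adjusted p 0.079 to 0.121). Against wild type Serping1 stood at 1.70 ± 0.45 in null samples (adjusted p = 0.102; exact two-sided permutation p = 0.0571) and at 0.17 ± 0.45 in siRNA samples (95% interval -0.81 to 1.15, adjusted p = 0.868).

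Before the membrane proteins Cd59a, C3ar1 and C5ar1 are described, their promoters are shown with matches to motifs of interferon, myeloid and other factors. Any link between these matches and the inducer or microglial genes given later was not tested. They are the 3 of 7 measured genes matched by symbol in the RefSeq promoter sequences. Each window runs from 250 bases before to 50 after the gene's start in GRCm38.p6, 5′ to 3′ on the gene's strand: chr6:122856108-122856407 (minus strand) for C3ar1, chr7:16259289-16259588 (minus strand) for C5ar1 and chr2:104095551-104095850 (plus strand) for Cd59a. Capitals mark matches, on either strand, to the motifs of AP-1 (TGANTCA), the interferon-stimulated response element (GAAA and GAAA with 2 bases between), the interferon-gamma-activated site (TTCNNNGAA), C/EBP (TTGCNNAA), the myeloid factor PU.1 (GAGGAA) and the TATA box (TATAAA).
C3ar1: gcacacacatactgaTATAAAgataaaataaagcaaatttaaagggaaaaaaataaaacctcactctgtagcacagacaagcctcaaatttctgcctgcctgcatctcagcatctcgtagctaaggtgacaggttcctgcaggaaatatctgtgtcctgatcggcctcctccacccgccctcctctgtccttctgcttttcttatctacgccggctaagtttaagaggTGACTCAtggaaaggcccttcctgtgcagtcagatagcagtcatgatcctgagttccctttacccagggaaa
C5ar1: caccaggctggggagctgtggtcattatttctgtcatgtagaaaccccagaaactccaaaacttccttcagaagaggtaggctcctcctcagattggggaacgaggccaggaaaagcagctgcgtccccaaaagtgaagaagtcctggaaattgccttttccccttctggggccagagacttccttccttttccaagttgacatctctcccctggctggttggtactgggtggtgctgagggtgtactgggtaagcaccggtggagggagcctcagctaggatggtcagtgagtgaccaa
Cd59a: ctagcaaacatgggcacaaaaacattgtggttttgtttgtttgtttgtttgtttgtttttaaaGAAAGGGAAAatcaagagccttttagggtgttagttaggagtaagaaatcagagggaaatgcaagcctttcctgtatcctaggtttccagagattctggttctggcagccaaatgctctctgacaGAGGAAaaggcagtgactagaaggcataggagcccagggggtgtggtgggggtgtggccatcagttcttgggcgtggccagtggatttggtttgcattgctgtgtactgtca
The C3ar1 window holds an AP-1 match, TGACTCA, whose first base lies at -22 from the start, and TATAAA at -235. The Cd59a window holds the interferon element match GAAAGGGAAA at -187 and GAGGAA at -62, and the C5ar1 window holds none of the 6 motifs. Of all 32851 windows, 7.81% held the AP-1 letters, 3.44% the interferon element, 8.3% the gamma-activated site, 10.8% the C/EBP letters, 28.3% GAGGAA and 13.6% TATAAA. These matches are letters in a window and not measured sites.

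Cd59a encodes the membrane protein that shields a cell from the complement pore. It read 3.70, 3.90, 4.08 and 3.52 in null samples, 1.48, 2.34, 3.91 and 5.06 in siRNA samples and 2.94, 3.12 and 2.99 in wild-type samples 3, 4 and 6. All null samples lay above all wild-type samples, whereas the siRNA samples lay on both sides of wild type. Serping1 and Cd59a were 2 of 6 probes without overlap between null and wild type, against 8.2% of the same 14243 probes. The limma change of Cd59a for null minus wild type was 1.49 ± 0.60 (adjusted p = 0.259; exact two-sided permutation p = 0.0286, unadjusted). For siRNA minus wild type it was 0.88 ± 0.60 (95% interval -0.43 to 2.20, adjusted p = 0.423), and for null minus siRNA 0.60 ± 0.50 (adjusted p = 0.501). The null minus wild type value was 2.32 without null replicate 4 and 0.82 in replicates 3 and above alone, and the siRNA minus wild type value was 0.080 without siRNA replicate 4 and 1.51 in replicates 3 and above alone. None of these 4 passed.

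C3ar1, the receptor for C3a, read 3.99, 4.05, 1.62 and 2.87 in null samples 1 to 4, 1.83, 1.96, 2.01 and 2.32 in siRNA samples 1 to 4 and 3.33, 2.15 and 3.22 in wild-type samples 3, 4 and 6. The 4 siRNA samples were close together and low, and null replicates 1 and 2 were the highest of all. Its change was -1.22 ± 0.57 for siRNA minus wild type (95% interval -2.48 to 0.04, limma adjusted p = 0.226), -0.12 ± 0.57 for null minus wild type (95% interval -1.37 to 1.14, adjusted p = 0.951) and 1.10 ± 0.48 for null minus siRNA (adjusted p = 0.183). C5ar1, the receptor for C5a, read -0.69, -0.29, -2.19 and -2.02 in null samples, -1.14, -0.66, -1.45 and -1.08 in siRNA samples and -1.22, -1.64 and -1.12 in wild-type samples 3, 4 and 6. All groups overlapped. Its change was -0.22 ± 0.41 for siRNA minus wild type (95% interval -1.11 to 0.68, adjusted p = 0.811), -0.43 ± 0.41 for null minus wild type (adjusted p = 0.682) and -0.22 ± 0.34 for null minus siRNA (adjusted p = 0.745).

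Markers of microglia, which carry both receptors, had their highest mean in null replicates 1 and 2, as C3ar1 did. The wild-type samples were not ranked alike by the marker mean and C3ar1, and covariation with either receptor was not tested. Over the 16 microglial genes with all 11 values the mean log2 value was 4.41, 4.64, 2.12 and 2.99 in null samples 1 to 4, 1.76, 2.14, 1.58 and 2.07 in siRNA samples 1 to 4 and 3.73, 3.66 and 3.14 in wild-type samples 3, 4 and 6. Of 18 microglial genes tested 9 were lower in siRNA samples than in wild type and 0 higher (median -1.93), and 3 were lower with presumed array pairs as a random block. Among the 9 were the lysosomal gene Laptm5 (-3.38) and the myeloid transcription factor Spi1 (-2.57). With array pairs as a block Laptm5 passed by limma (adjusted p = 0.00714) and Spi1 did not (adjusted p = 0.0807). In these bulk samples fewer cells of a type and less RNA per cell cannot be told apart, and the part of microglia in the receptor values was not tested.

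**Figure D3:**
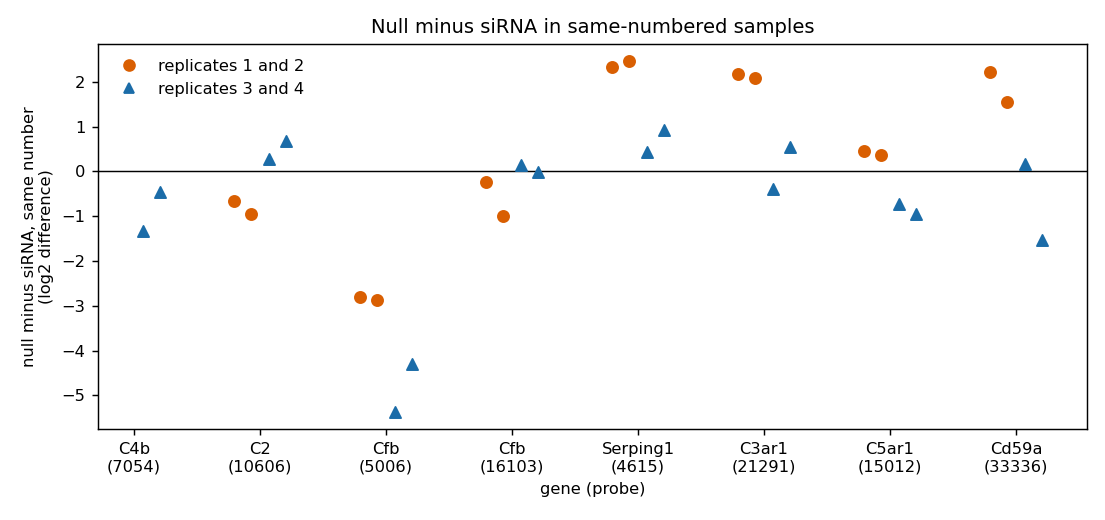
Null minus siRNA log2 difference in same-numbered samples for each complement probe; circles are replicates 1 and 2, triangles replicates 3 and 4. Cfb probe 5006 is below 0 and Serping1 above 0 in all 4 pairs, while C2 and C5ar1 change sign between the replicate sets. Cd59a is above 0 in pairs 1 to 3 and below 0 in pair 4.

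The difference between null and siRNA samples depended on the replicate set for most complement probes. Of 7 probes with enough values, 5 passed a test of the interaction between group and replicate set (limma, adjusted p under 0.05), where 18.3% of 16587 probes did. Each combination of group and set is a single pair of samples that may share an array, so this test rests on the spread within such pairs. Null minus siRNA averaged 2.13 for C3ar1, 1.89 for Cd59a, 0.41 for C5ar1 and -2.83 for Cfb probe 5006 in replicates 1 and 2. In replicates 3 and 4 it averaged 0.08 for C3ar1, -0.69 for Cd59a, -0.84 for C5ar1 and -4.84 for Cfb probe 5006. C2 averaged -0.81 in replicates 1 and 2 and 0.49 in replicates 3 and 4, where its interaction did not pass (adjusted p = 0.0542). Of the 5 probes that passed, Cfb probe 5006 and Serping1 had the same sign in all 4 pairs, C5ar1 had opposite signs in the 2 sets, and C3ar1 was near 0 in replicates 3 and 4. The average of Cd59a also changed sign between the sets, with 0.17 in pair 3 and -1.54 in pair 4.

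The complement probes did not follow a common pattern across samples. After the replicate set and dye had been fitted out, Pearson's r over the 11 samples ran from -0.42 to 0.76 among the 15 pairs of the 6 fully measured probes. The highest was between Serping1 and Cd59a (0.76), followed by Serping1 and C3ar1 (0.56) and by C3ar1 and C5ar1 (0.53), while C2 and Cfb probe 16103 had 0.21. Among 9299 named probes of other genes, the genes with the most similar residuals to Serping1 were Fgfr3 (r = 0.97), Gm2a (0.97) and Shroom2 (0.96), and to C3ar1 Nckap1l (0.98), Pik3ap1 (0.96) and Tnfrsf19 (0.96). Those for C2 were Rgs3 (0.99), Tnrc6a (0.97) and Dtwd1 (0.97), for C5ar1 Cab39 (0.97), Antxr1 (0.97) and Mrps12 (0.96), for Cd59a Ccnl2 (0.95), Epb41l2 (0.95) and Tcte1 (0.93), and for Cfb probe 16103 Slc39a7 (0.96), Elovl1 (0.94) and Rinl (0.94). These values describe 11 samples that share groups and arrays, and the genes named are similar by selection.

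Of 48 other complement pathway genes, from C1q to the membrane pore and its regulators, 36 had a probe and 19 were tested. In siRNA samples 2 of the 19 were lower than wild type and 0 higher, where 7.41% of all probes were called in either direction. C1qa changed by -2.43 ± 0.37 (SE, log2, limma adjusted p = 0.00435) and C1qb by -2.27 ± 0.48 (adjusted p = 0.0204). Both are subunits of C1q, which starts the classical pathway. The third subunit, C1qc, named here after its value was seen, stood at -1.72 (adjusted p = 0.169), and C1qa alone passed with presumed array pairs as a random block (adjusted p = 0.04). In the main calls C4b and C2 were higher while C1qa and C1qb were lower in the siRNA samples. Of these, C4b rests on 2 siRNA samples. C2 and C1qb did not pass with presumed array pairs as a random block (limma adjusted p = 0.231 and 0.102). C1qa and C1qb also belong to the microglial markers above. Over the 19 genes the median change was -0.62, beside 0.13 over all probes, and 14 of 19 were negative.

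Between null and wild type 0 of the 19 passed, where Hc, the mouse gene of C5, had the smallest p (1.92 ± 0.49, limma adjusted p = 0.0953) and C1qbp, a mitochondrial protein that binds C1q, stood at -1.66 ± 0.49 (adjusted p = 0.134). Hc passed at 2.03 (adjusted p = 0.0364) and C1qbp at -2.05 (adjusted p = 0.0281) within replicates 3 and above alone. Between null and siRNA 3 were higher in null, C1qa (1.56), C1qb (1.71) and Hc (1.67), and C1qbp was lower (-1.55), at adjusted p of 0.0153 to 0.0475; 0 passed with presumed array pairs as a random block. With the replicate number as a block C1qa, Hc and C1qbp passed between null and siRNA and C1qb did not (1.74, adjusted p = 0.0524).

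**Figure D4:**
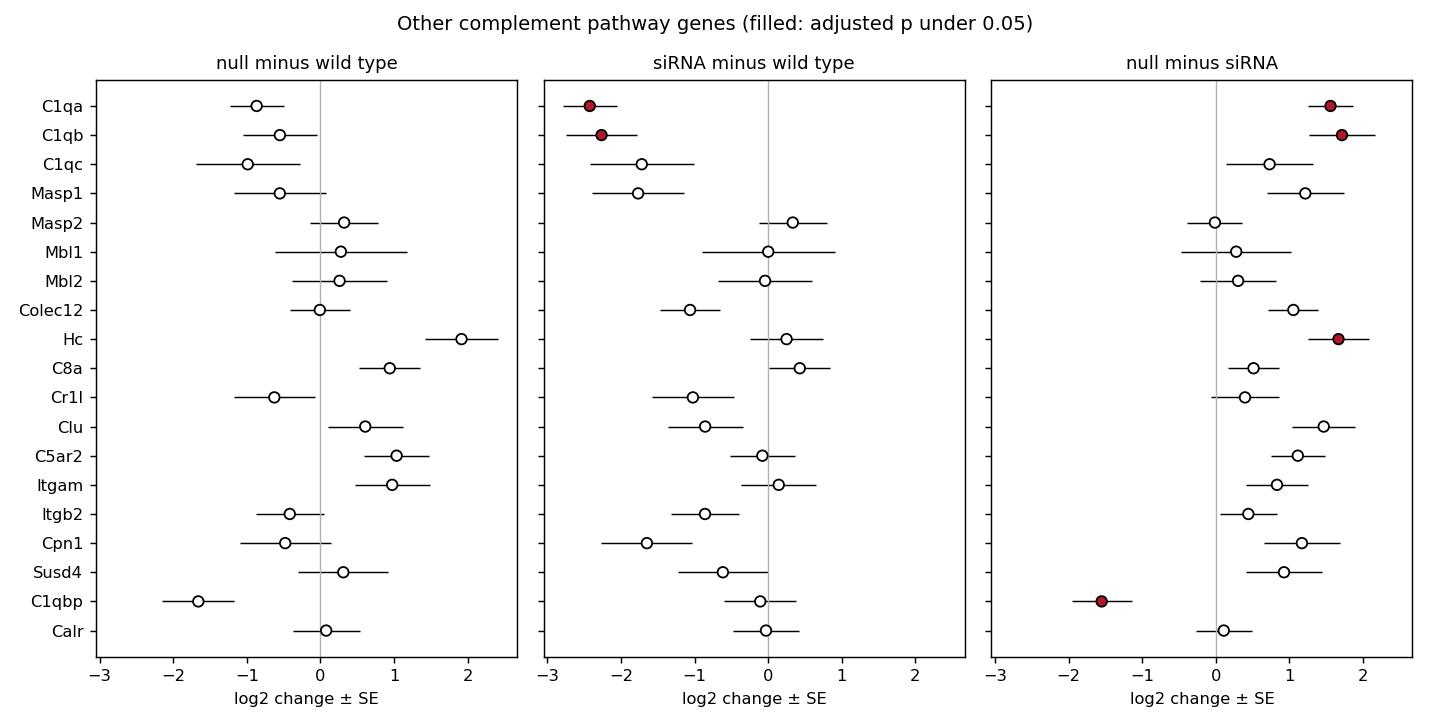
Log2 change with SE of the 19 other complement pathway genes tested, for null minus wild type, siRNA minus wild type and null minus siRNA; filled points had an adjusted p under 0.05. C1qa and C1qb are the filled points for siRNA minus wild type (-2.43 and -2.27), and none is filled for null minus wild type.

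Complement genes are known targets of interferon, NF-kB and IL-6 signalling. Of 39 genes of these pathways 26 were tested. Against wild type 3 rose in siRNA samples, where 7.41% of all probes were called in either direction. Irf7, an interferon-induced transcription factor, rose by 5.56 ± 0.88 (limma adjusted p = 0.00514). Tlr3, a receptor for double-stranded RNA, rose by 3.87 ± 0.44 (adjusted p = 0.000946), and Relb, an NF-kB subunit, by 2.05 ± 0.47 (adjusted p = 0.0256). Irf7 and Tlr3 passed with presumed array pairs as a random block and Relb did not (adjusted p = 0.145). In null samples against wild type limma called 0 of the 26 and 0.362% of all probes, and Irf7 stood at 0.37 ± 0.88 (adjusted p = 0.899). Between null and siRNA Irf7 (-5.19), Tlr3 (-2.92) and Tlr2 (-1.98), a receptor for bacterial lipoproteins, were lower in null, where 6.22% of all probes were called. With presumed array pairs as a random block Irf7 and Tlr3 passed there and Tlr2 did not (adjusted p = 0.0613), and with the replicate number as a block 5 of the 26 were lower in null.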

How the data were processed

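RNA was measured on spotted oligonucleotide arrays in 14 samples; per the labels, 20 ug of total RNA was labelled with Cy3 or Cy5. The authors deposited 1 log2 value per probe and sample, with a median of 0 in each sample; the sources used here do not give background correction, filter or normalization, and signal over background is unknown, so the number of arrays limits precision. In wild-type replicate 5 the deposited quantity is unknown. Genes were named from the platform's probe annotation (18179 probes with 1 symbol, 87 with several, 15334 unnamed here; 0 symbols changed against RefSeq genes of GRCm38.p6).

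The 3 contrasts came from 1 limma 3.58.1 fit (R 4.3.3) over 11 samples with replicate set and dye as covariates, 6 residual degrees of freedom, two-sided p-values adjusted by Benjamini-Hochberg over all 16307 probes, and a call at an adjusted p under 0.05. A gene was represented by its tested probe with the highest mean, and other probes of the complement genes are given too. Single probes were also tested by exact permutation of unadjusted group means. The fit was also run on simulated data with independent noise in each sample. In the data the correlation within presumed array pairs was estimated at 0.452, so that run does not bear on calls lost with array pairs as a block. Same-numbered samples, which also share a dye, deviated together from their group means in 8 of 8 pairs (r = 0.12 to 0.65). The replicate set was not fitted out there. Null and siRNA samples of the same set had r of 0.57 to 0.65 with the same number and 0.40 to 0.60 otherwise. These values do not separate number from set. Wild-type replicates 3 and 4 had r of 0.12 to 0.39 with null and siRNA samples of the same number, and -0.20 to -0.05 with the other number of the set. The replicate number as a block is given beside results it changes. Named genes were all complement members, called genes of the pathway and inducer lists, examples of the marker lists and the 3 most similar genes per member. The members and lists were chosen with earlier results of these data known. The separate fits for Cfb probe 5006, the interaction and the list counts under other settings were chosen after seeing the data.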

Additional observations from a re-analysis of the deposited data

Results flagged for a closer look

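For 5 complement probes the null minus siRNA difference passed a test of differing between replicates 3 and 4 and replicates 1 and 2 (limma interaction, adjusted over 16587 probes, of which 18.3% passed). Each combination of group and set is a single pair of samples that may share an array. The SE and p-values therefore rest on the spread within such pairs. The difference in replicates 3 and 4 less that in replicates 1 and 2 was -2.01 ± 0.50 (SE, log2) for Cfb probe 5006 (adjusted p = 0.0374), -1.72 ± 0.36 for Serping1 (adjusted p = 0.0232) and -2.05 ± 0.50 for C3ar1 (adjusted p = 0.0339). It was -1.25 ± 0.35 for C5ar1 (adjusted p = 0.0497) and -2.58 ± 0.60 for Cd59a (adjusted p = 0.0304). In all 5 the value of null relative to siRNA was lower in replicates 3 and 4. The replicate sets are known from the numbers alone, and what they share was not tested. Of 14 groups of 4 samples checked for a sample far from the rest, 0 held one.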

How the results depend on the processing

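With 3 wild-type samples, all from replicates 3 and above, the count of probes called moved by over 1.5 times in 19 of 22 settings between null and wild type, in 7 of 22 between siRNA and wild type and in 13 of 23 between null and siRNA. Probes called between null and wild type (59) numbered 0 with all 14 columns and the dye alone, 0 without the replicate set term, 115 without the dye, 0 with presumed array pairs as a random block, 153 with the replicate number as a block (which drops wild-type replicate 6), 883 in replicates 3 and above alone, 10 after scale normalization, 304 with array weights, 313 with at least 2 values per group and 1 to 132 on leaving out 1 sample. Between siRNA and wild type (1208) they numbered 31 with all 14 columns, 39 without the set term, 202 with array pairs, 308 after scale normalization and 241 to 1158 without 1 sample. Between null and siRNA (1014) they numbered 19, 73, 119, 1870 in replicates 3 and above alone, 621 after scale normalization, 2276 with array weights and 320 to 1415 without 1 sample, the first 3 in the order all columns, no set term and array pairs.

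Of the 6 complement probes, 1 (C2) passed between null and wild type in replicates 3 and above alone, and 0 in every other setting. Between siRNA and wild type 0 passed with all 14 columns, without the set term, with array pairs, with the replicate block, in replicates 3 and above alone and after scale normalization, and 0 to 1 without 1 sample. Between null and siRNA 0 passed with all 14 columns, without the set term, with array pairs and in replicates 3 and above alone, and 0 to 1 without 1 sample. C2 thus lost its call between siRNA and wild type in 16 of 22 settings and Serping1 its call between null and siRNA in 10 of 23, with no change of sign. The replicate block, which pairs same-numbered samples, (C2 siRNA minus wild type at 1.92, adjusted p = 0.08) changed no other call of a complement probe.

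Changes of sign all concerned changes that did not pass. For null minus wild type C3ar1 was 2.14 with all 14 columns, 0.26 without the set term, 0.017 with the replicate block, 0.083 with array weights and -0.52 to 0.57 without 1 sample, C5ar1 was 0.063 with all columns and without the set term, and Cfb probe 16103 was -0.71 to 0.13 without 1 sample. For siRNA minus wild type Serping1 was -0.78 with all columns, -0.65 without the set term, -0.068 after scale normalization and -0.17 to 0.30 without 1 sample. C3ar1 was 1.04 with all columns, C5ar1 0.28 with all columns and without the set term and 0.074 in replicates 3 and above alone, and Cfb probe 16103 0.051 with array pairs and -0.43 to 0.41 without 1 sample. For null minus siRNA in replicates 3 and above alone C2 was 0.49, Cfb probe 16103 0.062 and Cd59a -0.69, and C2 was -0.51 to 0.12 without 1 sample. The cause was not tested. C4b could not be fitted without null or siRNA replicate 3 or 4, which leaves 1 value, and was not run with all columns, without the set term or after scale normalization.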

Other observations

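Markers of astrocytes and of other cell types were counted in the same fit and are given beside the complement values. They do not give the makeup of the cultures, since fewer cells and less RNA per cell cannot be told apart. Over all probes 0.362% were called between null and wild type, 7.41% between siRNA and wild type and 6.22% between null and siRNA. Of 11 astrocyte markers tested, 1 was higher and 2 were lower in siRNA samples than in wild type: Aldh1l1, an enzyme of folate metabolism, was higher (1.82, limma adjusted p = 0.0367), and the glycolytic enzyme Aldoc (-2.34, adjusted p = 0.0321) and the bicarbonate transporter Slc4a4 (-2.22, adjusted p = 0.0213) were lower. With presumed array pairs as a random block 0 of these passed by limma (adjusted p = 0.194 for Aldh1l1, 0.148 for Aldoc and 0.0807 for Slc4a4). Between null and siRNA 3 were higher in null, Aldoc (3.30), Slc4a4 (1.87) and the transcription factor Sox9 (1.31), and Gja1 was lower. With array pairs as a block Aldoc passed there (adjusted p = 0.0252), and Slc4a4 (adjusted p = 0.123), Sox9 (adjusted p = 0.198) and Gja1 (adjusted p = 0.0519) did not. Of 6 fibroblast markers 1, the matrix protein gene Mgp, was lower in siRNA samples than in wild type (-4.62, adjusted p = 0.0424). Mgp did not pass with array pairs as a block (adjusted p = 0.143), and 3 fibroblast markers were lower with the replicate number as a block. Of 3 endothelial markers 1, the VEGF receptor gene Flt1, was lower in siRNA than in wild type (-1.74, adjusted p = 0.0222) and higher in null than in siRNA (1.46, adjusted p = 0.0237), and neither passed with array pairs as a block (adjusted p = 0.146 and 0.171). Of 6 oligodendrocyte markers 1, the transcription factor gene Sox10, was higher in null than in siRNA (1.66, adjusted p = 0.0107), which did not pass with array pairs as a block (adjusted p = 0.111). Between null and wild type Gja1 was the 1 marker called among these lists, and not with array pairs as a block (adjusted p = 0.273). Of 18 microglial markers 8 were higher in null than in siRNA and 0 lower, and 2 were higher with presumed array pairs as a random block.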
